A study of Mus musculus with 32 samples.

Results

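The genes described here are those of mitochondrial oxidative phosphorylation, taken as every gene on the arrays whose mouse symbol begins with Nduf, Uqcr, Cox4 to Cox8 or Atp5, or is Sdha, Sdhb, Sdhc or Sdhd. This rule, which uses no expression value, found 80 of the 15780 named genes, each with 1 probe set. By known role they were 32 subunits of complex I, 8 assembly factors of complex I, 4 subunits of complex II, 6 of complex III, 9 of complex IV and 12 of complex V (ATP synthase), with 8 tissue-restricted or inducible isoforms and Cox7a2l, which helps to join complexes into supercomplexes. The 13 subunits encoded by the mitochondrial genome are not analysed here. Expression was measured in 32 whole kidneys of lupus-prone mice, 1 array each. Kidneys came from 6 NZM2410 mice in remission after Ad-BAFF-R-Ig, an adenovirus that makes a soluble receptor for the B cell survival factor BAFF. From NZB/W mice there were 6 kidneys in late remission after triple therapy (cyclophosphamide, CTLA4Ig and anti-CD154), 5 in late remission after Ad-TACI-Ig, which binds BAFF and APRIL, with CTLA4Ig, 8 in early remission after the same triple therapy, and 7 from untreated mice aged 30 weeks without proteinuria. NZB/W mice develop immune complex nephritis spontaneously and NZM2410 is an inbred line derived from the same parents. No age is given for the remission groups, and nephritic kidneys are not analysed here.

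Oxidative phosphorylation passes electrons from NADH (through complex I) and from succinate (through complex II) to ubiquinone, then through complex III and cytochrome c to complex IV, where oxygen is reduced. Complexes I, III and IV pump protons across the inner mitochondrial membrane, and complex V uses the gradient to make ATP. Complex II is also succinate dehydrogenase, an enzyme of the citrate cycle, and is the only complex with no subunit from the mitochondrial genome. In the kidney, the proximal tubule, the thick ascending limb and the distal convoluted tubule hold the most mitochondria, since their sodium transport runs on ATP made there.

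Values are deposited log2 expression values from RMA, so a difference of 1 is a doubling. Array medians lay between 7.02 and 7.16, but the SD across genes was 2.12 to 2.18 on NZM2410 arrays and 1.91 to 2.04 on NZB/W arrays. By mean signal, which reflects the probes as well as the RNA, 64 of the 80 genes were in the top 10% of named genes and 3 had a mean below 6.07, the level of dim probes, so a difference in the width of the distribution moves most of them one way. The overall direction of each comparison is therefore given as deposited and after quantile normalization, which gives all arrays 1 distribution. All kidneys carried tubule RNA, with the proximal phosphate transporter Slc34a1 between 12.13 and 13.50 and the loop protein Umod between 13.34 and 14.05. Cyp11b1, an enzyme of the adrenal cortex, was below 7 in 6 of 6 NZM2410, 5 of 5 TACI-Ig, 4 of 8 early-remission and 2 of 7 30-week kidneys. In late remission after triple therapy, the mean of each of the 80 genes lay within 0.013 of the mean of the 12 TACI-Ig and 30-week kidneys pooled, where the median standard error of that difference was 0.06. Cyp11b1 was between 6.92 and 7.21 in all 6 of these kidneys, a range in which no TACI-Ig or 30-week kidney lay. The cause was not tested, and values of this group are not read as an independent group mean. The label of 1 early-remission kidney holds the same mouse code as that of 1 30-week kidney. The labels do not say whether other kidneys shared a litter or batch, and the number of arrays limits the precision. Mouse codes of all TACI-Ig kidneys begin with E, of all 30-week kidneys with BG and of all late triple-therapy kidneys with V. What these letters mean is not given. In whole tissue, fewer cells of a type and less RNA per cell cannot be told apart.

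In early remission after triple therapy, nearly all of these genes had a higher mean than at 30 weeks, by small amounts, and none passed the threshold. The mean was higher for 79 of 80 genes, with a median log2 difference of 0.14, against 59.6% of all genes and a median of 0.02. With limma at a Benjamini-Hochberg adjusted p of 0.05 over all genes, 0 members were called, as were 0.0% of all genes. At an unadjusted p under 0.05, 35 members were higher and 0 lower, against 5.42% and 3.37% of all genes. Other genes of high signal leaned the same way, since the 566 genes with a mean of 11 or above, 58 of them members, had a median difference of 0.08. After quantile normalization 63 of 80 members had the higher mean, with a median of 0.06, against -0.0084 over the same 566 genes.

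A complex score, the mean over the genes of a complex of each gene's log2 value minus its own mean over all 32 kidneys, was computed per kidney. The complex I score was -0.10, 0.09 and 0.21 at its lowest, median and highest in early remission, against -0.20, -0.07 and -0.03 at 30 weeks. Early-remission kidneys 2 and 8 were within the 30-week range and the other 6 lay above all 7 of the 30-week kidneys. In kidneys 2 and 8 only 16 and 18 of the 80 genes were above their own mean, while the other 6 early-remission kidneys had 57 to 79, and the 30-week kidneys 13 to 32. The mean difference in score was 0.15 for complex I, 0.07 for complex II, 0.13 for complex III and 0.14 for complexes IV and V, and after quantile normalization it was 0.064, -0.035, 0.048, 0.043 and 0.050. No test was made of a score. Without the pair of kidneys whose labels hold 1 mouse code, the mean over the 80 members differed by 0.12 and complex I by 0.14, against 0.13 and 0.15 with them. All 30-week kidneys have codes that begin with BG, and early-remission kidneys 2 and 8, among others, do not. With the BG kidneys alone the mean over the members differed by 0.20. Kidneys with and without adrenal RNA were in both groups. Among kidneys with Cyp11b1 below 7 alone (4 in early remission and 2 at 30 weeks) the differences were 0.24, 0.07, 0.19, 0.19 and 0.18. Cell type markers also differed, none of them called. All 6 loop and distal tubule markers (median 0.14), 5 of 5 collecting duct markers (0.15) and 6 of 8 proximal tubule markers (0.04) had a higher mean in early remission, and all 8 leukocyte markers (-0.14) and all 6 adrenal cortex markers (-1.02) a lower one. Their part in the members' difference was not tested.

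**Figure D1:**
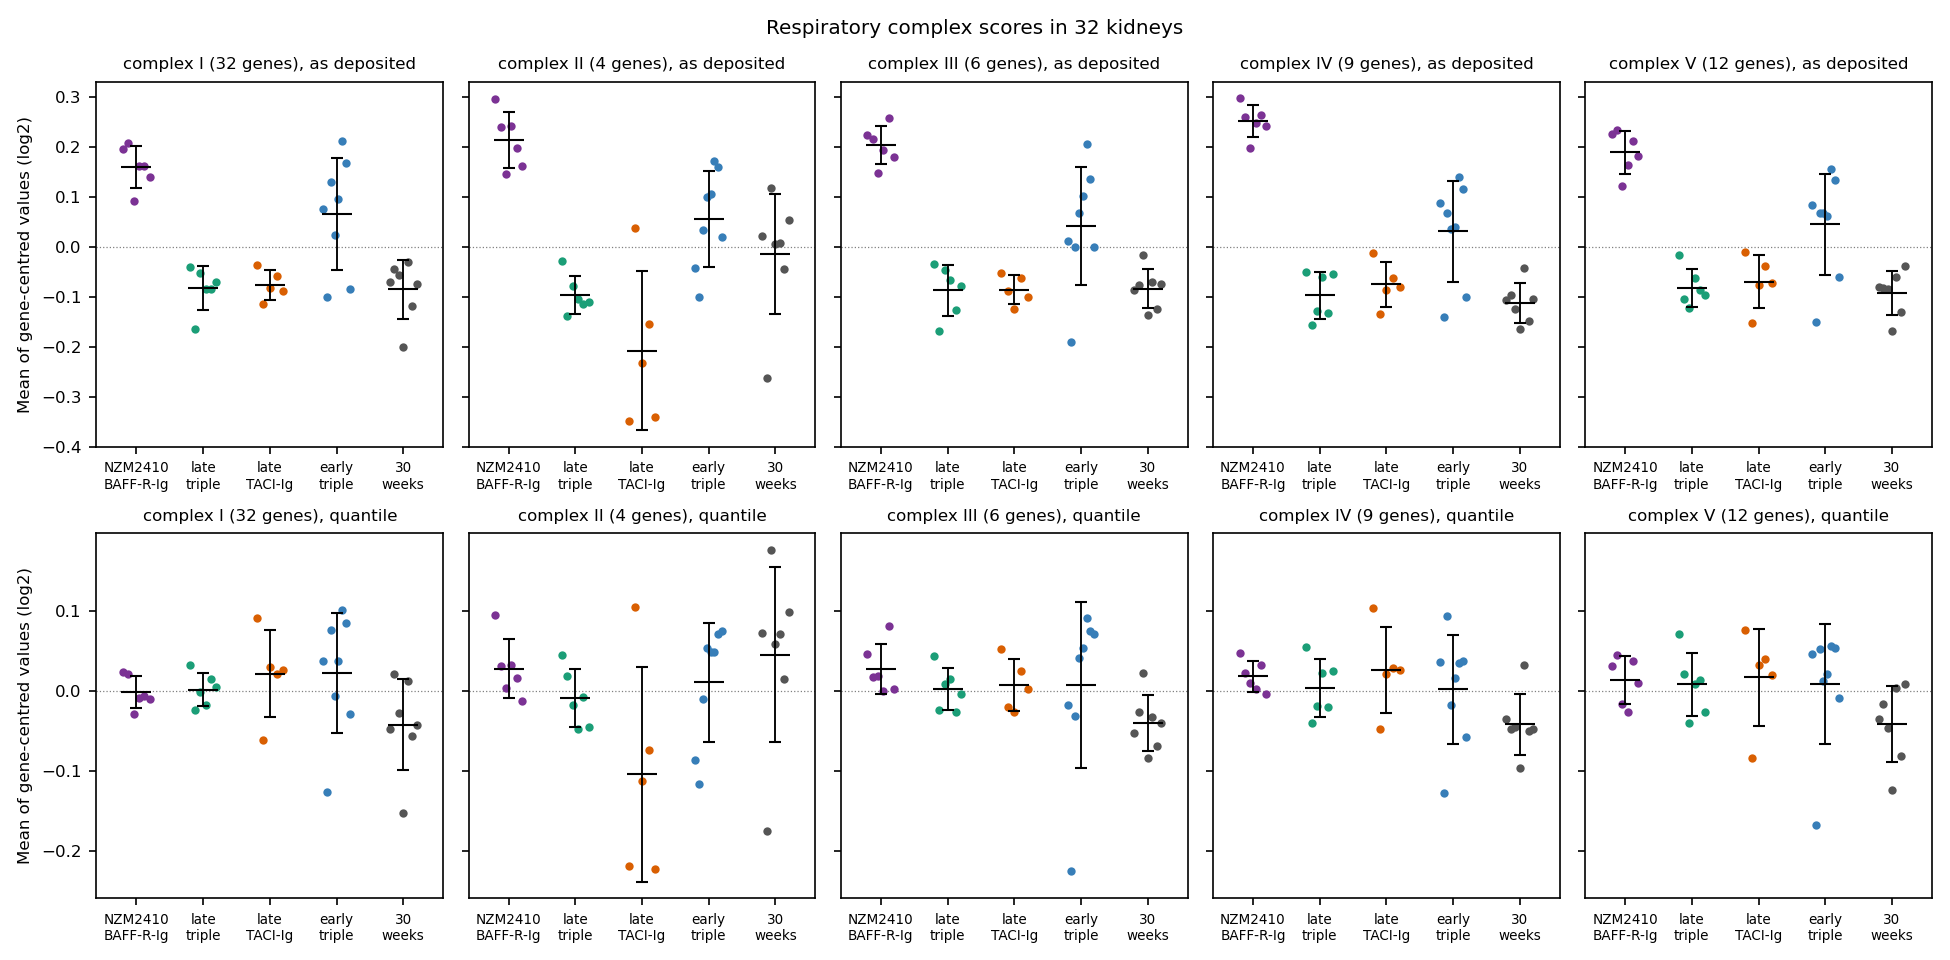
Score of each complex (mean log2 value of its genes after subtraction of each gene's mean over 32 kidneys) by group, as deposited in the upper row and after quantile normalization in the lower row, with a point per kidney and bars for the mean and SD. As deposited, NZM2410 kidneys averaged 0.16 and TACI-Ig kidneys -0.08 for complex I, a gap that is absent in the lower row, while TACI-Ig kidneys 1 and 5 are lowest for complex II in both rows.

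Among subunits of complex I, Ndufv1, the flavoprotein that oxidizes NADH, was at 11.81, 11.87 and 12.07 (lowest, median, highest) in early remission, against 11.57, 11.68 and 11.83 at 30 weeks. Only the lowest early-remission kidney fell inside the 30-week range, and the log2 difference was 0.22 ± 0.05 (SE) with a limma adjusted p of 0.189. Ndufs7, an iron-sulfur subunit next to the ubiquinone site, differed by 0.24 ± 0.06 (adjusted p = 0.255), and Ndufb10, an accessory subunit of the membrane arm, by 0.28 ± 0.09 (adjusted p = 0.348). The core subunit Ndufs1, which carries iron-sulfur clusters, differed by 0.10 (adjusted p = 0.758).

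In complex V, Atp5d, the delta subunit of the central stalk, was the only member whose groups did not overlap, where 0.0634% of all genes were higher and 0.0697% lower without overlap. It was at 12.29, 12.36 and 12.60 in early remission, against 12.03, 12.15 and 12.28 at 30 weeks, a difference of 0.22 (adjusted p = 0.231). The catalytic subunits differed less, with 0.09 for Atp5a1 (alpha) and 0.06 for Atp5b (beta). In complex III the core protein Uqcrc1 differed by 0.17 and its partner Uqcrc2 by 0.04, and in complex IV Cox5b, a subunit on the matrix side, differed by 0.23 and Cox4i1, the ubiquitous form of subunit 4, by 0.10. The 4 genes of complex II differed by 0.12 for Sdha, 0.06 for Sdhb, 0.08 for Sdhc and 0.03 for Sdhd. With array weights, which give less weight to arrays that fit poorly, 11 members were called higher (Ndufa5, Ndufs8, Ndufv1, Ndufv2, Uqcr10, Uqcrh, Cox6c, Cox7a2, Atp5e, Atp5j2 and Atp5pb), and 0 lower, against 0.494% and 0.285% of all genes.

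In late remission after Ad-TACI-Ig and CTLA4Ig, no member passed the threshold against 30 weeks. The means of the 4 genes of succinate dehydrogenase were lower by 0.08 to 0.25 on the log2 scale, 2 of them (Sdhb and Sdhd) at an unadjusted p under 0.05, and the mean scores of the other complexes differed by 0.04 or less as deposited. Those scores averaged genes that differed in both directions, from -0.19 to 0.29 in complex I and from -0.25 (Uqcrc1) to 0.17 in complex III. In complexes IV and V the genes differed by -0.15 to 0.20 and by -0.15 to 0.15. Lower means of this size were therefore not particular to complex II. Sdha is the flavoprotein that oxidizes succinate, Sdhb the iron-sulfur subunit, and Sdhc and Sdhd anchor the enzyme in the inner membrane. With limma 0 members and 0.0% of all genes were called. At an unadjusted p under 0.05, 5 members were higher and 5 lower, against 10.7% and 9.67% of all genes, so the share of members was below that of all genes in both directions. Of 80 members 45 had the higher mean, with a median difference of 0.02, against 0.04 over all genes. After quantile normalization 48 had the higher mean, with a median of 0.064, against 0.014 over all genes, so the order of members and all genes turned.

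The promoters of the 3 members with the smallest p in this comparison are printed here, since 2 of them, Sdhd and Sdhb, were lower and the other, the complex I subunit Ndufb8, was higher. Each is the RefSeq sequence (GRCm38.p6) of 300 bases that ends 50 bases past the gene's start, read 5′ to 3′ on the gene's strand. Capitals mark motif matches, which were searched on both strands. In Sdhd (chr9:50603800-50604099, minus strand) these are CTTCCGG, the reverse complement of the ETS motif CCGGAAG, and TGACCTTGA, the reverse complement of the ERR motif TCAAGGTCA. In Sdhb (chr4:140961021-140961320, plus strand) the capitals mark the ETS motif, and in Ndufb8 (chr19:44555393-44555692, minus strand) the YY1 motif AAGATGGC. No matches overlapped in these promoters.
Sdhd: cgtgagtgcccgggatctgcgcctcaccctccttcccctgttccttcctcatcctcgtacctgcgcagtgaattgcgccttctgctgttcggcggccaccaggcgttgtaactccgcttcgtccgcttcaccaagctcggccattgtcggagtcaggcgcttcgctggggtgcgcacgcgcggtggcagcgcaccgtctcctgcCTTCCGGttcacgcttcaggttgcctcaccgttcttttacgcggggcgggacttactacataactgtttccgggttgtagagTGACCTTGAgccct
Sdhb: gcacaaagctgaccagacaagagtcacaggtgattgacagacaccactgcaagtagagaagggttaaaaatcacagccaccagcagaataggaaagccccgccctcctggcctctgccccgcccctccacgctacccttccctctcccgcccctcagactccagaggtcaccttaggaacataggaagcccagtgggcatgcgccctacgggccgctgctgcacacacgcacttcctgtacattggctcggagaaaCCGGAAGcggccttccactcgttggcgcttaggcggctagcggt
Ndufb8: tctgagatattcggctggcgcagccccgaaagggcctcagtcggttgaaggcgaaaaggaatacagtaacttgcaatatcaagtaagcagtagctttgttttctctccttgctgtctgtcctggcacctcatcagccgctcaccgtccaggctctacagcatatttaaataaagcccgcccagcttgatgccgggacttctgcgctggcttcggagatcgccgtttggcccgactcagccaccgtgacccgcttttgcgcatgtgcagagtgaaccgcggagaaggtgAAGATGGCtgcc

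Promoters were given for 65 of the 80 members and for 12585 named genes in all. The ETS motif was in 14 members (21.5%) and in 15.4% of all promoters, and the ERR motif in 2 members (3.08%) and in 0.350% of all promoters. The YY1 motif was in 11 members (16.9%), 7 of them among the 29 complex I genes with a promoter, and in 4.14% of all promoters. The NRF1 motif GCGCATGCG was in 7 members (10.8%) and in 3.15% of all promoters, with no match in the 3 genes of complex II that had a promoter. A match describes the letters and was not tested for binding.

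Sdhd was at 11.38, 11.87, 11.58, 11.59 and 11.62 in TACI-Ig kidneys 1 to 5, against 11.68, 11.84 and 11.96 (lowest, median, highest) at 30 weeks. All TACI-Ig kidneys except kidney 2 were below all 7 of the 30-week kidneys, and the difference was -0.23 ± 0.08 (SE, limma adjusted p = 0.203). Sdhb was at 12.62, 12.98, 12.80, 12.79 and 12.55 in TACI-Ig kidneys, against 12.77, 12.94 and 13.14 at 30 weeks, with a difference of -0.21 ± 0.08 (adjusted p = 0.211). Only TACI-Ig kidneys 1 and 5 were below the whole 30-week range. Sdhc was at 11.14, 11.80, 11.49, 11.72 and 11.18 in TACI-Ig kidneys, against 11.30, 11.78 and 11.86 at 30 weeks, and differed by -0.25 (adjusted p = 0.273). The lowest 30-week value, 11.30, was that of kidney 2, and the next was 11.68. Sdha was at 12.35, 12.38, 12.07, 12.16 and 12.16 in TACI-Ig kidneys, against 12.08, 12.34 and 12.44 at 30 weeks, and with a difference of -0.08 (adjusted p = 0.511) the groups overlapped over almost their whole range.

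**Figure D2:**
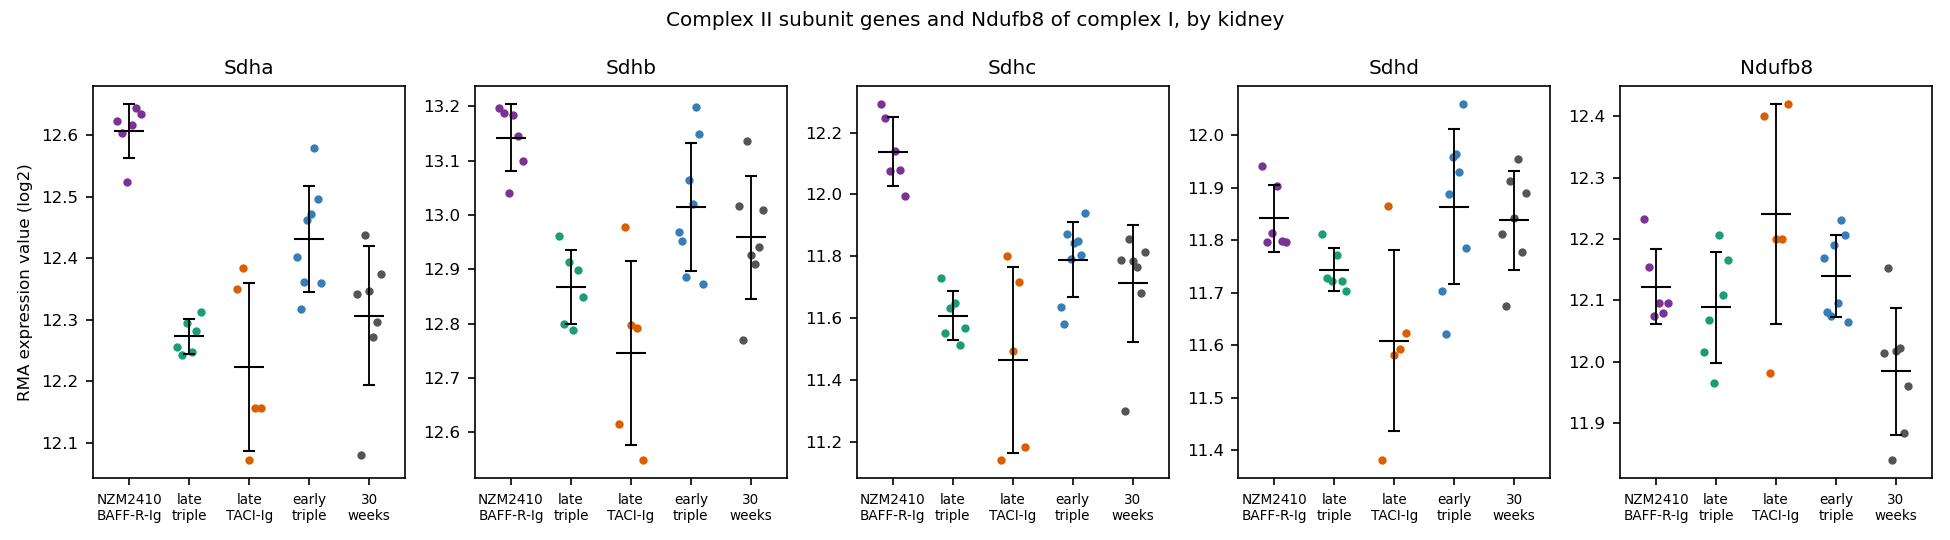
Log2 expression of Sdha, Sdhb, Sdhc, Sdhd and Ndufb8 in each of the 32 kidneys by group, with bars for the mean and SD. For Sdhd, 4 of the 5 TACI-Ig kidneys lie between 11.38 and 11.62, below all 30-week kidneys, while Ndufb8 has the opposite order, with the same 4 kidneys between 12.20 and 12.42.

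Ndufb8, an accessory subunit of the membrane arm of complex I, was at 12.40, 11.98, 12.20, 12.20 and 12.42 in TACI-Ig kidneys, against 11.84, 12.01 and 12.15 at 30 weeks. The same 4 TACI-Ig kidneys lay above all 30-week kidneys, with a difference of 0.26 ± 0.08 (adjusted p = 0.203). Other members past an unadjusted p of 0.05 were Ndufa5 (0.29), Ndufaf4 (0.36), Ndufb7 (0.20) and Ndufa2 (0.25) on the higher side, and Ndufa7 (-0.16), Ndufaf3 (-0.17) and Atp5b (-0.15) on the lower side. These genes were chosen after their values were seen. Without TACI-Ig kidney 2, limma called Ndufb8 (0.32, adjusted p = 0.0342) and Ndufb7 (0.26, adjusted p = 0.0490) higher and Sdhd (-0.29, adjusted p = 0.0362) lower, where 3.28% of all genes were called higher and 5.02% lower. That kidney alone thus decided whether any member was called.

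The complex II score was -0.35, 0.04, -0.23, -0.16 and -0.34 in TACI-Ig kidneys 1 to 5, against -0.26, 0.01 and 0.12 (lowest, median, highest) at 30 weeks. The difference in means was -0.19, with a pooled SD of 0.14, and -0.15 after quantile normalization. Leaving out 1 kidney at a time gave -0.25 to -0.16, and the kidneys with Cyp11b1 below 7 alone gave -0.24. The complex I score of the same TACI-Ig kidneys lay between -0.11 and -0.04, and its difference was 0.01, or 0.06 after quantile normalization. Differences for complexes III, IV and V were -0.0018, 0.04 and 0.02.

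Markers of the proximal tubule, the transporters and endocytic receptors of that segment, moved with the complex II score. Their score was -0.77, 0.20, -0.35, -0.06 and -0.69 in TACI-Ig kidneys 1 to 5, against -0.51, 0.16 and 0.25 at 30 weeks, and 30-week kidney 2, lowest of its group for complex II, was also the lowest here. Of the 8 markers 7 had a lower mean in TACI-Ig kidneys, 3 of them at an unadjusted p under 0.05, with a median of -0.42, and the score differed by -0.33 after quantile normalization. The leukocyte marker score was 0.65, -0.85, 0.36, -0.51 and 1.14 in TACI-Ig kidneys and 1.41 in 30-week kidney 2. Of 12 other enzymes of the citrate cycle 10 had a lower mean and 5 an unadjusted p under 0.05, with a median of -0.17. The part of cell composition in these differences was not tested.

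**Figure D3:**
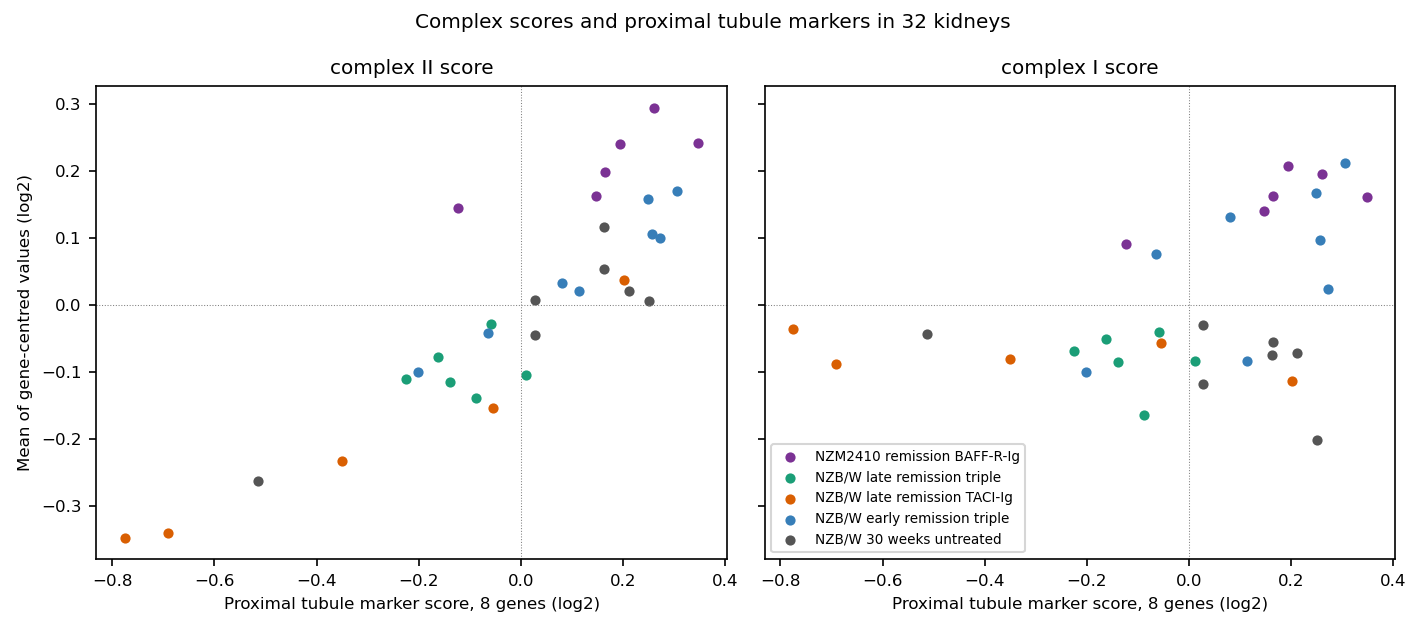
Complex II score (left) and complex I score (right) against the proximal tubule marker score, with a point per kidney coloured by group. TACI-Ig kidneys 1, 3 and 5 and 30-week kidney 2 have the lowest tubule scores among NZB/W kidneys, from -0.77 to -0.35, with complex II scores from -0.35 to -0.23, while their complex I scores lie between -0.09 and -0.04.

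Cox7a2l, the supercomplex factor, ran the other way in the same kidneys and was chosen after its values were seen. It was at 11.02, 10.49, 10.86, 10.60 and 10.93 in TACI-Ig kidneys, against 10.50, 10.55 and 10.92 at 30 weeks. The highest 30-week value was again kidney 2, and the others did not exceed 10.59. The difference was 0.19 (limma adjusted p = 0.290). The study lists 14 of these genes as lower in nephritic NZB/W or NZM2410 kidneys, which are not analysed here. Of the 14, 11 had a lower mean in TACI-Ig than in 30-week kidneys, with a median of -0.12. Of all 80 members 35 had a lower mean, and 58.7% of all genes had a higher one.

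Against early remission, TACI-Ig late-remission kidneys had lower means for most members as deposited and for an even split after quantile normalization. The mean was lower for 64 of 80 genes, with a median of -0.12, and limma called 0 members and 0.0% of all genes. At an unadjusted p under 0.05, 28 members were lower and 0 higher, against 8.52% and 6.29% of all genes. The 566 genes of high signal had a median of -0.14. After quantile normalization 40 of 80 members had the higher mean and the members' median was -0.0023. Complex II stayed lower, with a score difference of -0.26 as deposited and -0.12 after quantile normalization, where complexes I, III, IV and V gave -0.14, -0.13, -0.11 and -0.11 as deposited and between -0.00049 and 0.025 after quantile normalization.

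Cox5b was at 12.29, 12.52, 12.44, 12.61 and 12.18 in TACI-Ig kidneys, against 12.59, 12.77 and 12.99 (lowest, median, highest) in early remission, with a difference of -0.38 ± 0.09 (adjusted p = 0.131). Uqcrc1 was at 11.34, 11.91, 11.74, 11.82 and 11.17 in TACI-Ig kidneys, against 11.90, 12.01 and 12.11 in early remission, with a difference of -0.41 ± 0.11 (adjusted p = 0.152). In each gene 1 TACI-Ig kidney reached just into the early-remission range. The 4 genes of complex II differed by -0.21 (Sdha), -0.27 (Sdhb), -0.32 (Sdhc) and -0.26 (Sdhd), with adjusted p between 0.167 and 0.206. Groups did not overlap for Cox8a, the ubiquitous form of subunit 8, for Atp5pb, the b subunit of the peripheral stalk, and for the assembly factor Ndufaf2, all lower in TACI-Ig kidneys, where 0.234% of all genes were lower without overlap.

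Of the 14 genes listed by the study for nephritis, 12 were lower as deposited at an unadjusted p under 0.05. This compares with 28 of all 80 members and 8.52% of all genes. No value after quantile normalization is given for these 14 genes, though the lean of the members as a whole was absent there. The fit over all 5 groups called 13 members lower and 0 higher, against 1.7% and 0.292% of all genes, and the fit without TACI-Ig kidney 2 called 11 lower (Ndufa7, Ndufa9, Ndufs1, Ndufaf3, Sdha, Sdhb, Sdhc, Sdhd, Uqcrc1, Cox5b and Cox8a) and 0 higher, against 4.39% and 2.43%. Array weights called 0. All 8 proximal tubule markers had a lower mean, 7 of them at an unadjusted p under 0.05, with a median of -0.46, and 12 of 12 citrate cycle enzymes had a lower mean. Adrenal RNA also differed, with all 6 adrenal cortex markers lower in TACI-Ig kidneys.

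Late-remission kidneys after triple therapy are given with the limit stated above, that their gene means matched the pooled mean of the TACI-Ig and 30-week kidneys. Their differences from early remission thus largely restate those of the TACI-Ig and 30-week kidneys from early remission. The counts and calls below are therefore no independent result. Against early remission 77 of 80 members had a lower mean, with a median of -0.13 as deposited and -0.02 after quantile normalization. Limma called 0 members, against 0.0697% of all genes, and 37 members were lower and 0 higher at an unadjusted p under 0.05, against 3.81% and 1.5% of all genes. Uqcrc1 was at 11.55, 11.76 and 11.88 in late remission, against 11.90, 12.01 and 12.11 in early remission, with no overlap and a difference of -0.27 ± 0.06 (adjusted p = 0.154). Cox5b differed by -0.29 ± 0.07 (adjusted p = 0.207) and Sdha by -0.16 (adjusted p = 0.455), and the groups were also apart for these genes and for Atp5d and Atp5pb, where 0.222% of all genes were lower without overlap. Array weights called Uqcrc1, Cox5b and Atp5pb lower and 0 members higher, against 0.38% and 0.0317% of all genes.

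Against the 30-week kidneys and against TACI-Ig kidneys, no member of the late triple-therapy group was called or reached an unadjusted p under 0.05. The group's gene means matched the pooled mean of these same kidneys. The counts and differences given here were thus largely set in advance and are no independent result. All genes gave 0.0% and 0.076% called in these comparisons, and 0.292% and 0.539% at an unadjusted p under 0.05. The mean over the members differed by 0.0017 from 30-week kidneys and by -0.0047 from TACI-Ig kidneys, and complex II by -0.08 and 0.11. After quantile normalization these were 0.035 and -0.013 for the members and -0.055 and 0.095 for complex II.

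NZM2410 kidneys in remission after BAFF-R-Ig differed from late-remission NZB/W kidneys of the TACI-Ig group in both directions, and the direction for many genes depended on the scaling. Strain, treatment and labelled stage (remission against late remission) differ together here and cannot be told apart. The batches of the arrays are not given, and all NZM2410 arrays had a wider spread across genes than all NZB/W arrays. A difference between batches could not be told apart from these either. As deposited, 55 members were called higher and 7 lower, against 28.6% and 30.9% of all genes. After quantile normalization 12 were called higher and 12 lower, against 24.5% and 23.3%, and after median centring 38 and 9, against 22.6% and 35.6%. The median over members was 0.27 as deposited and 0.0014 after quantile normalization, and over the 566 genes of high signal 0.28 and 0.011. Under all 3 scalings 12 members were higher and 5 lower, against 19.1% and 19.0% of all genes, so the members' share was below that of all genes in both directions. The sign of the difference changed after quantile normalization for 27 of 80, among them Sdhd, Cox5a, Uqcrfs1 and Ndufs8. Ndufs8, an iron-sulfur subunit of complex I, was called higher as deposited (0.16) and lower after quantile normalization (-0.14).

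**Figure D4:**
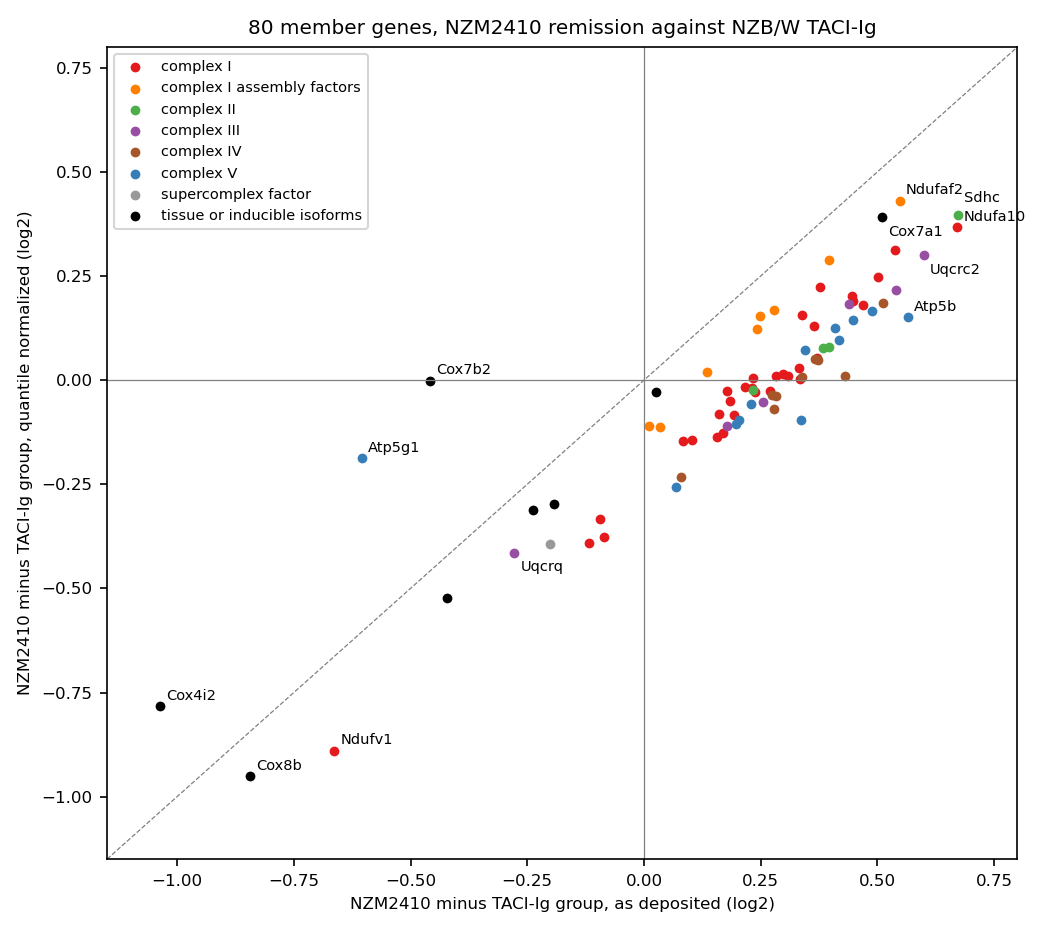
Log2 difference of NZM2410 minus TACI-Ig kidneys for each of the 80 members, after quantile normalization (vertical axis) against as deposited (horizontal axis), with members coloured by class. The dashed line marks equal values, and most members lie below it, since the members' median is 0.27 as deposited and 0.0014 after quantile normalization.

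The 12 genes higher in NZM2410 under all 3 scalings came from every complex, with Ndufa7, Ndufa10, Ndufb3 and Ndufs1 of complex I, the assembly factors Ndufaf1 and Ndufaf2, Sdhc, Uqcrc2, Cox5b, both catalytic subunits Atp5a1 and Atp5b of ATP synthase, and the muscle-type isoform Cox7a1. Sdhc was at 11.996, 12.11 and 12.29 (lowest, median, highest) in NZM2410 kidneys and between 11.14 and 11.80 in TACI-Ig kidneys, with no overlap. Its difference was 0.67 as deposited (limma adjusted p = 0.000348) and 0.40 after quantile normalization. Uqcrc2 was at 12.90, 12.96 and 13.07 in NZM2410 kidneys, against 12.26 to 12.54 in TACI-Ig kidneys, with a difference of 0.60 ± 0.07 (adjusted p = 1.33e-05), or 0.30 after quantile normalization. Atp5b was at 14.15, 14.21 and 14.26 in NZM2410 kidneys, against 13.55 to 13.77 in TACI-Ig kidneys, with a difference of 0.57 ± 0.06 (adjusted p = 1.02e-05), and Atp5a1 differed by 0.49. After quantile normalization these were 0.15 (adjusted p = 0.0451) and 0.17 (adjusted p = 0.0135). Ndufa10, an accessory subunit of complex I, differed by 0.67, Ndufaf2 by 0.55 (0.37 and 0.43 after quantile normalization) and Uqcrh, the hinge protein of complex III, by 0.54. Uqcrh was not called after quantile normalization.

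Lower in NZM2410 under all 3 scalings were Ndufv1, Uqcrq and the isoforms Cox4i2, Cox6a2 and Cox6b2. Ndufv1 was at 10.93, 11.14 and 11.25 in NZM2410 kidneys, against 11.72, 11.71, 11.94, 11.91 and 11.64 in TACI-Ig kidneys, with a difference of -0.66 ± 0.08 (adjusted p = 1.33e-05). The NZM2410 range lay below that of every NZB/W group, whose lowest kidney was at 11.54. Uqcrq, a small subunit of complex III, was at 9.67, 9.81 and 9.93 in NZM2410 kidneys and above that range, up to 10.16, in all 5 TACI-Ig kidneys, a difference of -0.28. Atp5g1, which encodes the c subunit of the rotor, and the testis isoform Cox7b2 differed by -0.60 and -0.46 as deposited. Both had a mean signal below 6.07 and were not called after quantile normalization.

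By complex, the score difference was 0.24 for complex I, 0.42 for complex II, 0.29 for complex III, 0.33 for complex IV and 0.26 for complex V as deposited. After quantile normalization it was -0.023, 0.13, 0.021, -0.0081 and -0.0034. Complex II thus kept the largest of these 5 differences under both scalings, with a pooled SD of 0.09 after quantile normalization. That value came mainly from Sdhc (0.40), since Sdha (0.08), Sdhb (0.08) and Sdhd (-0.02) were not called. Taken by symbol alone, so that its isoforms were counted, complex IV differed by -0.0018 as deposited. Counted by complex, as deposited, 22 of 32 genes of complex I, 4 of 4 of complex II, 5 of 6 of complex III, 8 of 9 of complex IV and 10 of 12 of complex V were called higher, with 5 of 8 assembly factors, where 28.6% of all genes were called higher. Called lower were 1 gene each of complexes I, III and V and 4 isoforms. After quantile normalization 4 genes of complex I were called higher and 5 lower, 1 of complex II higher, 1 of complex III higher and 1 lower, 1 of complex IV higher, 2 of complex V higher and 1 lower, and 2 assembly factors higher. For 39 members the NZM2410 kidneys were all above the TACI-Ig kidneys and for 5 all below, against 16.1% and 22.4% of all genes.

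Markers of tubule segments also differed between these groups. As deposited, 28.6% of all genes were called higher and 30.9% lower, against which the counts below are to be read. All 6 loop and distal tubule markers and 5 of 8 proximal tubule markers were called higher in NZM2410 kidneys as deposited, with medians of 0.69 and 0.64, and their mean differences after quantile normalization were 0.43 and 0.25. Of the citrate cycle enzymes 10 of 12 were called higher, with a median of 0.41 and a mean of 0.13 after quantile normalization, and of 73 genes with mitochondrial ribosome symbols 37 were called higher and 4 lower, with a median of 0.21. Of 9 carriers of electrons, ADP and phosphate 6 were called higher and 1 lower, with a median of 0.41. The lower one was Cycs, cytochrome c, the carrier of electrons between complexes III and IV (-0.76 as deposited, limma adjusted p = 2.88e-05). Of 12 regulators of mitochondrial genes 4 were called higher and 1 lower. The share called higher was near that of all genes. The 4 were Nrf1 (0.49), Gabpa (0.62), Gabpb1 (0.71) and Esrra (0.48). Values of single genes and of the ribosome, carrier and regulator lists given here are as deposited alone. The members' median fell from 0.27 as deposited to 0.0014 after quantile normalization. How far the values of these lists depend on the scaling is not shown here. Tfam, which packages mitochondrial DNA and activates its transcription, was the one called lower (-0.41, limma adjusted p = 0.000227). The coactivator Ppargc1a differed by 0.04 (adjusted p = 0.819). The part of cell composition in the members' differences was not tested.

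Cox4i2, the form of subunit 4 known from lung and low oxygen, was at 4.55, 4.72 and 4.85 in NZM2410 kidneys, against 5.97, 5.59, 5.71, 5.65 and 5.77 in TACI-Ig kidneys, a difference of -1.04 ± 0.08 (adjusted p = 7.17e-07). All 26 NZB/W kidneys were at 5.52 or above. Its mean signal was below 6.07, as for Atp5g1 and Cox7b2, and no detection calls were used, so how far its values lie above background is unknown and the size of the difference is uncertain. Cox4i1 was higher in NZM2410 by 0.37 as deposited (adjusted p = 0.000192) and not called after quantile normalization. Cox6a1, the ubiquitous form of subunit 6A, differed by 0.43 as deposited and by 0.01 after quantile normalization (adjusted p = 0.89). Cox6a2, the muscle form, differed by -0.24 (adjusted p = 0.0234) and by -0.31 after quantile normalization, and lost the call in 6 of 18 alternatives, among them the joint fit, array weights and leaving out TACI-Ig kidney 1 or 4 or NZM2410 kidney 6, with adjusted p between 0.0506 and 0.0726. Ndufa4, now known as a subunit of complex IV, differed by 0.08 and its hypoxia-inducible relative Ndufa4l2 by 0.03, and neither was called.

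Cox8b, the form of subunit 8 known from muscle and brown fat, varied widely within groups. It was at 6.55, 7.23 and 8.59 in NZM2410 kidneys, 7.53, 8.52 and 9.08 in late remission after triple therapy, 7.15 to 9.38 in TACI-Ig kidneys, 7.24, 8.89 and 9.33 in early remission and 7.89, 8.54 and 9.28 at 30 weeks. The difference of NZM2410 from TACI-Ig kidneys was -0.84 ± 0.42 (adjusted p = 0.0998). Ucp1, the uncoupling protein of brown fat, was 4.63 to 6.96 in NZM2410 kidneys 1 to 5, where Cox8b was 6.55 to 8.19, and 8.64 in NZM2410 kidney 6, where Cox8b was 8.59. The lowest Cox8b values of the TACI-Ig and early-remission groups, 7.15 and 7.24, were also in the kidneys of lowest Ucp1, at 5.65 and 7.38. In the late triple-therapy group the lowest Cox8b, 7.53, was in kidney 7 with Ucp1 at 7.79, while the lowest Ucp1, 5.43, was in kidney 6 with Cox8b at 7.61. At 30 weeks the lowest Cox8b, 7.89, was in kidney 6 with Ucp1 at 8.02, and the lowest Ucp1, 7.51, was in kidney 3. Cox8a differed by 0.37 as deposited (adjusted p = 0.001) and by 0.05 after quantile normalization (adjusted p = 0.542). Of 5 brown fat markers 3 were called lower in NZM2410, and of 4 white fat markers 3. Of 8 skeletal muscle markers 6 were called lower. These counts are as deposited, where 30.9% of all genes were called lower. The part of fat or muscle in the Cox8b values was not tested.

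**Figure D5:**
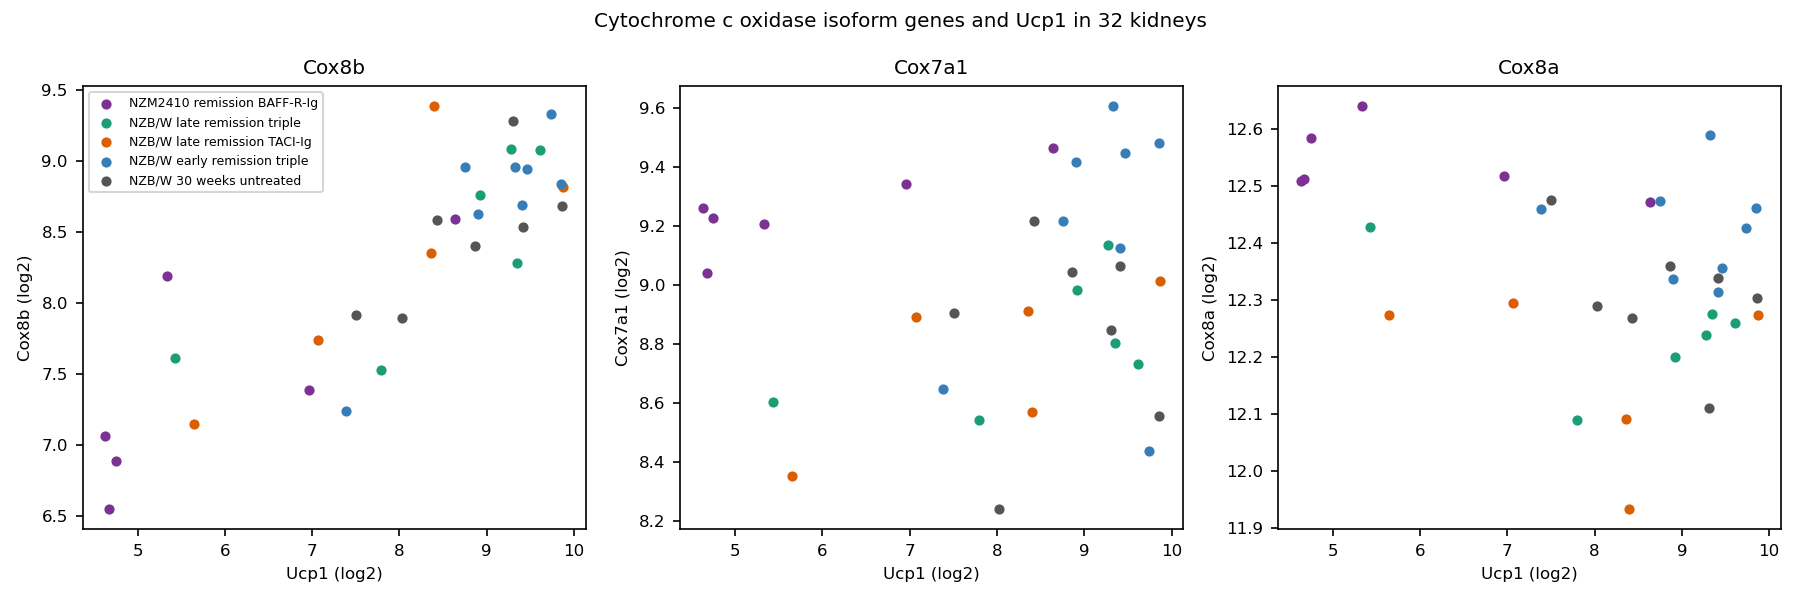
Log2 expression of Cox8b, Cox7a1 and Cox8a against that of Ucp1, the brown fat uncoupling protein, with a point per kidney coloured by group. The 4 lowest Cox8b values, 6.55 to 7.15, are in 3 NZM2410 kidneys and 1 TACI-Ig kidney with Ucp1 between 4.63 and 5.65, whereas Cox7a1 in NZM2410 kidneys stays between 9.04 and 9.47 at every Ucp1 level.

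Cox7a1, the muscle form of subunit 7A, was at 9.04, 9.24 and 9.47 in NZM2410 kidneys, against 8.91, 8.89, 8.35, 9.01 and 8.57 in TACI-Ig kidneys. The groups did not overlap, and the difference was 0.51 (adjusted p = 0.00221). Cox7a2, the ubiquitous form, differed by 0.28 as deposited (adjusted p = 0.0185) and by -0.07 after quantile normalization (adjusted p = 0.578). In early remission Cox7a1 ranged from 8.44 to 9.61, lowest in kidneys 2 and 8, the kidneys that were also low for most other members, and its difference from 30 weeks was 0.33 (adjusted p = 0.626).

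The assembly factors of complex I followed its subunits as deposited, with score differences of 0.24 between NZM2410 and TACI-Ig kidneys and 0.12 between early remission and 30 weeks. After quantile normalization these were 0.12 and 0.11, where the subunits gave -0.023 and 0.064. Ndufaf2 was at 9.16, 9.28 and 9.52 in NZM2410 kidneys and between 8.65 and 8.80 in TACI-Ig kidneys, with no overlap. Of 26 assembly factors named otherwise, for all complexes, 12 were called higher and 5 lower in NZM2410 kidneys, with a median of 0.21 as deposited and a mean of -0.03 after quantile normalization.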

How the data were processed

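Whole-kidney RNA of 32 samples was measured on Affymetrix arrays. The authors made log2 expression values with RMA, normalizing and batch-correcting the arrays together. Batches and software versions are not given in the sources used here. The deposited log2 values were used as they are. Of 16539 probe sets, 15780 had 1 gene symbol and were tested, and 64 array controls and 695 probe sets without a symbol were left out. No column of values was left out, and arrays give no depth. Groups came from the sample labels.

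Each of 7 comparisons was fitted on its own groups with limma 3.58.1 in R 4.3.3 (lmFit, eBayes). P-values were adjusted by Benjamini-Hochberg over the whole table, and genes with an adjusted p under 0.05 were called. Of these members 80 of 80 were found in the RefSeq gene table. Scores, counts and figures were made in Python 3.11.15 (pandas 2.3.3, numpy 2.4.6, matplotlib 3.10.9), and the fit was tested on simulated data. Alternatives were quantile normalization, median centring, genes with a log2 mean below 6.07 left out, a joint fit, array weights, a robust prior with a trend on mean level, the study's filter, the replicate number as a block, members by symbol prefix, each kidney left out and, for early remission against 30 weeks, the pair of kidneys with 1 mouse code left out or the kidneys with codes of that series alone. The study's filter was set on q-values of SAM, another test. Here its cut-offs, 0.001 with fold changes of 1.4 and 0.7, were applied to limma adjusted p instead. The kidneys with Cyp11b1 below 7 alone were added after the values were seen.

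Genes named are the members called in a comparison (all where 12 or fewer, otherwise the 6 largest and 6 smallest log2 fold changes), core subunits, isoform pairs and the 14 members the study lists for nephritis. Others named, such as Atp5d, Atp5pb, Ndufb7, Ndufb8, Cox7a2l, Ndufs8 and genes that are not members, were chosen after their values were seen. Members and lists were chosen with earlier results of these data known.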

Additional observations from a re-analysis of the deposited data

Results flagged for a closer look

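Of 215 sets of values tested (7 scores and 36 genes in 5 groups), 21 held a kidney that stood apart from the others of its group by Dixon's test, and chance flags about 1 in 20 groups. In the 30-week group, kidney 2 stood apart for the complex II score (-0.26) and was low for Sdhc (11.30), Ndufa10 (11.73) and Atp5b (13.62) and high for Ndufa5 (11.72) and Uqcrh (12.75). Its leukocyte marker score was 1.41 and its proximal tubule score -0.51. Among other 30-week kidneys, kidney 3 was high for Ndufa7 (11.31) and kidney 5 for Cox4i2 (5.78).

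In early remission, kidney 8 was low for the isoform score (-0.073) and for Cox8b (7.24), and kidney 2 was low for Atp5b (13.64) and high for Cox6b2 (9.79). Among late triple-therapy kidneys, kidney 7 was low for the complex I score (-0.17) and Ndufs8 (12.24), kidney 8 for Atp5g1 (4.37), and kidneys 6 and 11 were high for Ndufb10 (11.85) and Cox7b2 (4.76). Among NZM2410 kidneys, kidney 3 was low for Sdha (12.52), and kidney 2 was high for Ndufa5 (11.76) and kidney 5 for Ndufa7 (11.65) and Uqcrc1 (12.16).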

How the results depend on the processing

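Over all alternatives, 1115 repeats of the member counts and score differences stayed close to the value reported and 43 moved, most of them under quantile normalization. A count was taken as close if it was equal or within a set ratio, so a count that stayed at 0 was close. A score difference was taken as close if it shifted by less than its pooled SD. A small score difference could thus shrink or change sign and still count as close. For the genes followed singly through the alternatives, which are a part of the members, 968 repeats kept their direction and side of the threshold. Of the other repeats 23 lost the call, 23 gained it and 4 changed sign. The last were Sdhd (-0.023), Cox5a (-0.034), Uqcrfs1 (-0.053) and Ndufs8 (-0.14) in NZM2410 against TACI-Ig kidneys after quantile normalization. Among all 80 members, 27 changed sign in that comparison and scaling. Quantile normalization gave, for NZM2410 against TACI-Ig kidneys, 12 members higher and 12 lower and score differences of -0.023, 0.13, 0.021, -0.0081 and -0.0034 for complexes I to V, with a mean over members of -0.027. For TACI-Ig against early remission it gave -0.00049, -0.12, -0.00046, 0.025 and 0.0088, with a mean of -0.016, and for late triple therapy against early remission -0.020, -0.020, -0.0052, 0.0021 and -8.6e-05, with a mean of -0.028. It gave 0.043 and 0.050 for complexes IV and V in early remission against 30 weeks, 0.064 and 0.047 for complexes I and III in TACI-Ig against 30-week kidneys, and 0.042 for complex III in late triple therapy against 30 weeks. Median centring gave 0.17, 0.22, 0.26 and 0.19 for complexes I, III, IV and V, with a mean of 0.13, in NZM2410 against TACI-Ig kidneys. There the cut-offs of the study's filter, applied to limma adjusted p, called 10 members higher and 3 lower (8.25% and 11.7% of all genes). In the same comparison, leaving out genes below 6.07 gave 52 higher and 4 lower (34.7% and 16.3%) and 0.34 for complex V. Complex IV by symbol prefix differed there by -0.0018. Array weights called 11 members higher in early remission against 30 weeks and 3 lower in late triple therapy against early remission, and the joint fit called 13 lower in TACI-Ig against early remission. The causes were not tested. Kidneys with Cyp11b1 below 7 alone gave 0.24 and 0.062 for complex I in early remission and in TACI-Ig kidneys against 30 weeks. Leaving out 1 kidney gave 0 to 2 members higher and 0 to 1 lower in TACI-Ig against 30-week kidneys and 0 to 11 lower in TACI-Ig against early remission, with the highest counts without TACI-Ig kidney 2. Same-numbered kidneys deviated together with correlations of -0.71 to 0.34, so the numbers do not pair them, and with the replicate number as a block 41 members were higher and 7 lower in NZM2410 against TACI-Ig kidneys (24.4% and 28.3% of all genes) and 0 in the other 5 comparisons that share numbers. Late triple therapy against TACI-Ig kidneys shares none, so no block could be fitted there. The 5 to 8 arrays of a group limit what small differences can be called.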
